A study of Mus musculus with 6 samples.

Results

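The potassium channel genes were the array rows whose single gene symbol begins with Kcn, which covers the pore-forming subunits and the accessory subunits named after them. Of 19938 genes with a single symbol, 89 were potassium channel genes. Names for opposite-strand and overlapping transcripts were left out, including Kcnmb4os1 and Kcnmb4os2, whose names end in a number. Kcna2, Kcnh8 and Kcnma1 have several rows, and each was represented by its brightest row on average.

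RNA came from 6 cultures of mouse cells of strain 129, each hybridised to 1 Affymetrix whole-transcript array. Epiblast stem cells (EpiSCs, pluripotent cells of the postimplantation embryo) were kept in medium with serum replacement and FGF2 (1 array). Patterned neural rosettes were taken at day 5 of treatment with SB431542, Dorsomorphin, Noggin, RA and SHH, and the labels assign them to the ventral neural tube (1 array). Oligodendrocyte progenitor cells (OPCs) were grown from dissociated rosettes in N2B27 with FGF2, PDGF-AA and SHH, and were sampled at passage 3 and passage 11 (2 arrays). Oligodendrocytes came from OPCs of the same 2 passages after thyroid hormone was added and FGF2 and PDGF-AA were withdrawn (2 arrays). The labels name no sort and do not say how many cell lines were used. In bulk RNA such as this, fewer cells of a type and less RNA per cell cannot be told apart.

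Potassium channels let K+ leave or enter cells along its gradient and so set the resting potential and the shape of electrical signals. Voltage-gated (Kv) channels open on depolarisation, inward rectifiers (Kir) pass current best near rest, two-pore channels carry leak current, and calcium-activated channels respond to Ca2+ inside the cell. OPCs are known for A-type and delayed-rectifier K+ currents, and mature glia for Kir4.1, the channel encoded by Kcnj10 that helps clear K+ around active axons.

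All values are log2 units after RMA, the authors' normalization, so that 1 unit is a 2-fold difference. Array medians over all genes lay between 8.98 and 9.04, and without a detection call low values may hold little but background. Of the 89 genes, 42 were above 9, the median of all values, on at least 1 array, and 47 were below it on all 6. The difference between the highest and the lowest array was under 1 unit for 57 genes and at least 2 units for 15. Unless stated otherwise, values are given in the order EpiSC, rosette, OPC at passage 3, OPC at passage 11, oligodendrocyte at passage 3 and oligodendrocyte at passage 11.

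The labels were checked against marker genes. Pluripotency markers averaged 11.59 in the EpiSC array and 7.77 to 8.09 in the others, and OPC markers averaged 11.85 to 11.91 in OPC and oligodendrocyte arrays against 8.78 in the rosette. The median difference of the OPC markers between oligodendrocytes and OPCs was -0.527, with Gpr17 (1.97) and Sox10 (0.66) higher and the rest lower. All 7 measured oligodendrocyte markers, with Mbp and Mag among them, rose from OPCs to oligodendrocytes. Neuron markers averaged 12.07 in the rosette array and 9.44 to 10.01 in the OPC and oligodendrocyte arrays, where 6 or 7 of the 10 were above the median of all values. Microglia markers averaged 7.88 to 8.19, Schwann cell markers (4 measured) 8.37 to 8.97, mural cell markers 8.60 to 9.40 and astrocyte markers 9.32 to 10.56 over the 6 arrays.

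Several of the genes that changed encode subunits that assemble with each other: Kcnd2 and Kcnd3 encode the A-type pores Kv4.2 and Kv4.3, Kcnip3 their calcium-binding partner KChIP3, and Kcnj10 and Kcnj16 the inward rectifiers Kir4.1 and Kir5.1. The 250 bases before the transcript start of these 5 genes are shown because the results turn on them. They are from RefSeq, build GRCm38.p6, written 5′ to 3′. Capitals mark matches on either strand to 4 motifs chosen after the values were seen: the E-box CAGCTG, the Sox core ACAANG, the core CTGGNAC bound by MYRF and the TATA box TATAAA. Where RefSeq lists several starts (3 for Kcnip3 and 4 for Kcnj16), the first listed is shown.
Kcnd2, chr6:21215096-21215345, plus strand: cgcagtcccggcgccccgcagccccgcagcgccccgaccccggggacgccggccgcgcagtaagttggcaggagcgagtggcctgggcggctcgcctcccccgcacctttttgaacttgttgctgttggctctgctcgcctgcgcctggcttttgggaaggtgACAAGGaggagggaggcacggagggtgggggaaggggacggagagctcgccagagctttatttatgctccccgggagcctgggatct
Kcnd3, chr3:105451640-105451889, plus strand: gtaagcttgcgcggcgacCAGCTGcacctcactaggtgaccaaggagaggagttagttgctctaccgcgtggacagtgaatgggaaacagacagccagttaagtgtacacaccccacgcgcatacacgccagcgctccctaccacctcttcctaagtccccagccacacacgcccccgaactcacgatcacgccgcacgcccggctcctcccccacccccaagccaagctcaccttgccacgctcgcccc
Kcnip3, chr2:127522095-127522344, minus strand: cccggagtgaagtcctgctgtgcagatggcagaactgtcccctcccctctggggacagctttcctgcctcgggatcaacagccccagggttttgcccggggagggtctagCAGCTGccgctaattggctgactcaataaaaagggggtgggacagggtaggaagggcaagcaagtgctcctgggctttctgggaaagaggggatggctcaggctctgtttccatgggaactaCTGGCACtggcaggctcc
Kcnj10, chr1:172340960-172341209, plus strand: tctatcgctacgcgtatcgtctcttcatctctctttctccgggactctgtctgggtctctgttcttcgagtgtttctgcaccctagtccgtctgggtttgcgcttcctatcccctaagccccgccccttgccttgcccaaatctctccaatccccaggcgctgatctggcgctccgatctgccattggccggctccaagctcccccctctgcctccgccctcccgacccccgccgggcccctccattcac
Kcnj16, chr11:110967783-110968032, plus strand: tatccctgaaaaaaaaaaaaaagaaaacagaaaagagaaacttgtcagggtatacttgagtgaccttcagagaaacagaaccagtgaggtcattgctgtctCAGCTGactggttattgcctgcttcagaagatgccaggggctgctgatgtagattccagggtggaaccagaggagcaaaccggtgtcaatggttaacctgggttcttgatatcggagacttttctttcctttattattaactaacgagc

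The windows of Kcnd2 and Kcnd3 hold 22 and 18 CG pairs and that of Kcnj10 holds 17, against a median of 6 over all promoters. Kcnip3 and Kcnj16 have 4 and 3. The E-box letters occur before Kcnd3, Kcnip3 and Kcnj16, the Sox core before Kcnd2, the MYRF core before Kcnip3, and none of the 4 motifs before Kcnj10. Promoter sequence was found for 68 of the 89 genes. Among these, 23.5% hold the E-box, 27.9% the Sox core, 22.1% the MYRF core and 2.94% the TATA box, taking the first listed start of each, and the shares over all 32851 promoters of this length, several per gene included, are 13%, 36.3%, 16.1% and 12.4%. A match is a description of these letters, and binding was not measured.

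The 2 OPC arrays were compared with the 1 rosette array, the progenitor stage against the neural precursor stage. The medium and the dissociation of the rosettes differ as well and cannot be told apart from the stage. Kcnd2, Kcnd3, Kcnip3, Kcnj16 and Kcnma1 rose in OPCs and Kcnh2 fell. The 5 that rose are 5.62% of the potassium channel genes, and 1.26% of all genes tested rose. The 1 that fell is 1.12% of them, and 1.87% of all genes fell. The calls are limma tests with Benjamini-Hochberg adjustment over all genes and an adjusted p under 0.05. The median difference was 0.12 over the 89 genes and 0.02 over all genes, and 23 of the 89 (25.8%) had an unadjusted p under 0.05 against 15.4% of all genes.

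**Figure D1:**
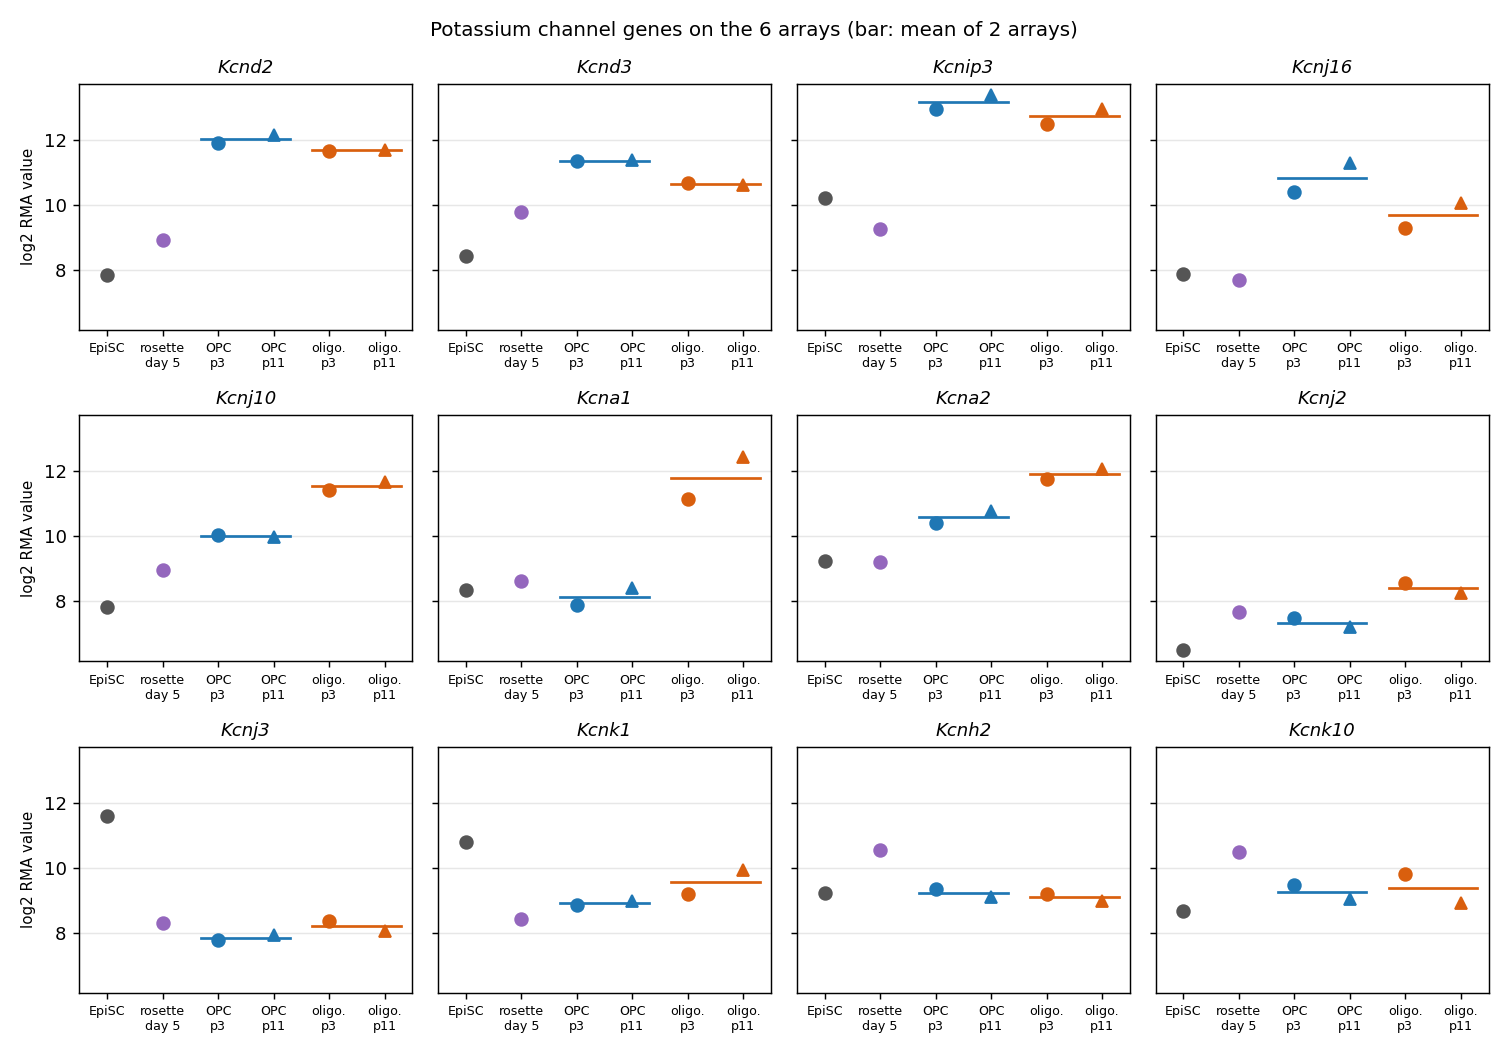
Log2 RMA values (vertical axis) of 12 potassium channel genes on each of the 6 arrays (horizontal axis, oligo. for oligodendrocyte, p for passage). Circles are passage 3 or cultures with no passage in the labels, triangles passage 11, and bars the mean of a pair. Kcnd2 and Kcnip3 sit above 11.6 on all 4 OPC and oligodendrocyte arrays, Kcna1 is above 11 on the oligodendrocyte arrays, and Kcnj3 is above 11 in the EpiSC array.

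Kcnd2 and Kcnd3, which encode A-type pores, were among the called genes. Kcnd2 read 7.84, 8.93, 11.90, 12.13, 11.67 and 11.69 on the 6 arrays. All 4 OPC and oligodendrocyte arrays lie well above the EpiSC and the rosette array. The difference between OPCs and the rosette was 3.09 ± 0.19 (SE, 2 arrays against 1), or 8.5-fold, with adjusted p = 0.00583. Kcnd3 read 8.44, 9.77, 11.35, 11.37, 10.67 and 10.61, a step up in the rosette and a further one in OPCs. Its OPC difference from the rosette was 1.59 ± 0.16, or 3.02-fold (adjusted p = 0.0141). Kcnd1, the third Kv4 pore gene, read 8.93 in the EpiSC array and 8.13 to 8.24 on the 5 others.

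Kcnip3, whose product also acts in the nucleus as the calcium-regulated repressor DREAM, read 10.21, 9.27, 12.94, 13.38, 12.49 and 12.96. The lowest value was in the rosette, and the OPC and oligodendrocyte arrays overlap one another. OPCs were 3.89 ± 0.29 above the rosette, or 14.9-fold (adjusted p = 0.00688). The 3 other KChIP genes were not called in this comparison. Kcnip1 read 9.24 in the rosette and 8.48 and 8.44 in OPCs, Kcnip2 8.22 against 8.30 and 8.21, and Kcnip4 7.87 against 7.02 and 6.97.

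Of the 15 inward rectifier genes, Kcnj16 was called. Kir5.1, its product, forms mixed channels with Kir4.1 that are sensitive to pH. Kcnj16 read 7.87, 7.70, 10.40, 11.28, 9.30 and 10.07, so that it was near 8 before the OPC stage and highest in OPCs. The OPC difference was 3.13 ± 0.47, or 8.77-fold (adjusted p = 0.0364). Kcnj10 read 7.82, 8.98, 10.03, 9.99, 11.41 and 11.68, and its OPC difference of 1.04 ± 0.19 was not called (adjusted p = 0.0615). Both genes are also expressed by astrocytes. Of 8 astrocyte markers, 2 rose in OPCs against the rosette, the whole list averaged 9.33 in the rosette and 10.31 and 9.84 in OPCs, and the 2 that rose were Aldoc (10.63 in the rosette, 13.75 and 13.12 in OPCs) and Slc1a3 (11.31, then 12.92 and 12.90). Aldh1l1 read 7.95 in the rosette and 11.25 and 8.65 in OPCs, and Gfap 7.89 and 8.11 on both OPC arrays. Slc1a2 went the other way, from 10.93 in the rosette to 9.62 and 9.87 in OPCs, and was not called (adjusted p = 0.195). The part of these markers in the inward rectifier results was not tested.

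Kcnma1 encodes the pore of the large-conductance calcium-activated BK channel, and the array has 2 rows with that name. The row with the highest mean, 10582545, read 8.79, 10.07, 14.23, 14.53, 14.32 and 14.62, a difference of 4.31 ± 0.23 between OPCs and the rosette (adjusted p = 0.00583). None of the 4 accessions that the array annotation gives for this row belongs to the RefSeq gene Kcnma1. Of the 10 named rows with the nearest identifiers, 0 are on the chromosome of Kcnma1. The other row, 10418053, has 17 of its 20 accessions in RefSeq Kcnma1, and 10 of its 10 nearest named rows are on that chromosome. It read 7.70, 8.20, 10.06, 10.12, 9.44 and 9.36. With that row in place of the first, OPCs were 1.89 ± 0.17 above the rosette, or 3.71-fold (adjusted p = 0.00929). Both rows rose, and the size depends on the row, so values of both are given below.

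**Figure D2:**
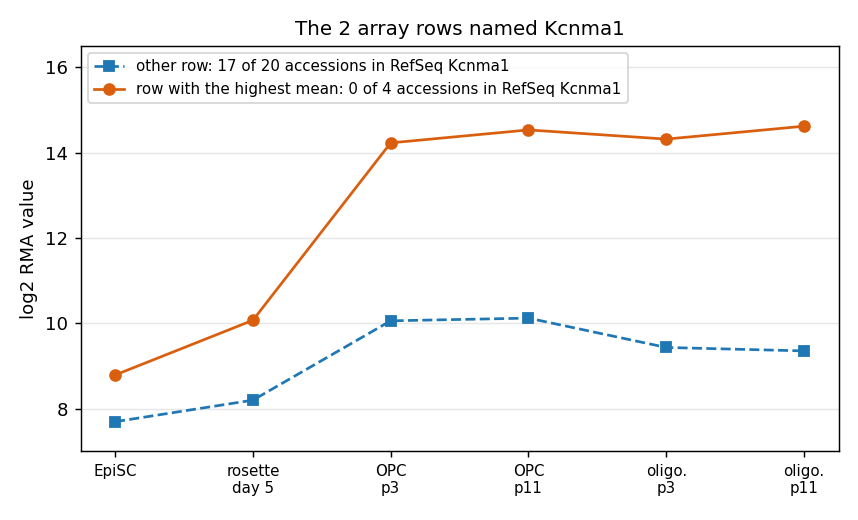
Log2 RMA values (vertical axis) of the 2 array rows named Kcnma1 on the 6 arrays (horizontal axis); lines join the points of a row only to guide the eye. Both rows are higher in OPCs than in the rosette, by 4.31 for the row with the highest mean and by 1.89 for the row with 17 of 20 accessions in RefSeq Kcnma1.

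Kcnh2, which encodes the ERG channel Kv11.1, was the gene that fell. It read 9.24, 10.55, 9.34, 9.12, 9.21 and 8.97, with the rosette above all other arrays. OPCs were lower than the rosette by 2.5-fold (difference -1.32 ± 0.20, adjusted p = 0.0393). Its relative Kcnh1 (EAG1) read 9.00 in the rosette and 8.00 and 8.08 in OPCs and was not called (adjusted p = 0.0572). Over the 7 measured genes of the EAG, ERG and ELK group the median difference was -0.47. Kcnh8, the ELK1 gene, read 7.98, 9.05, 8.49, 8.66, 8.63 and 8.47. Neuron markers have their highest level in the same rosette array, 5 of the 10 fell in OPCs (Nefl and Nefm among them), and their part in these differences was not tested.

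Several other channel genes differed between the rosette and both OPC arrays without being called. Kcna2 (Kv1.2) read 9.23, 9.22, 10.41, 10.79, 11.75 and 12.08, and its OPC difference was 1.38 ± 0.25 (adjusted p = 0.0592). Kcna6 (Kv1.6) read 7.98, 8.37, 9.52, 9.26, 9.98 and 9.70, with a difference of 1.01 ± 0.22 (adjusted p = 0.0891). Both stood higher on all 4 later arrays than on the EpiSC and rosette arrays. Kcnv1, a silent subunit that modifies other Kv pores, read 8.31, 8.22, 9.62, 9.42, 9.00 and 8.51 (1.30 ± 0.26, adjusted p = 0.0736). Kcnmb4, an accessory subunit of the BK channel known from brain, read 8.29, 8.68, 9.86, 10.68, 8.76 and 9.66 (1.59 ± 0.48, adjusted p = 0.199). Its OPC values at passage 3 and passage 11 are 0.81 apart. Kcnt2, a sodium-activated channel gene, read 7.90, 8.06, 7.39, 6.53, 7.20 and 6.94 (-1.10 ± 0.38, adjusted p = 0.252), below the median of all values on every array. Kcnk10, the two-pore channel TREK-2, read 8.66, 10.49, 9.49, 9.05, 9.83 and 8.91 (-1.23 ± 0.42, adjusted p = 0.248).

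**Figure D3:**
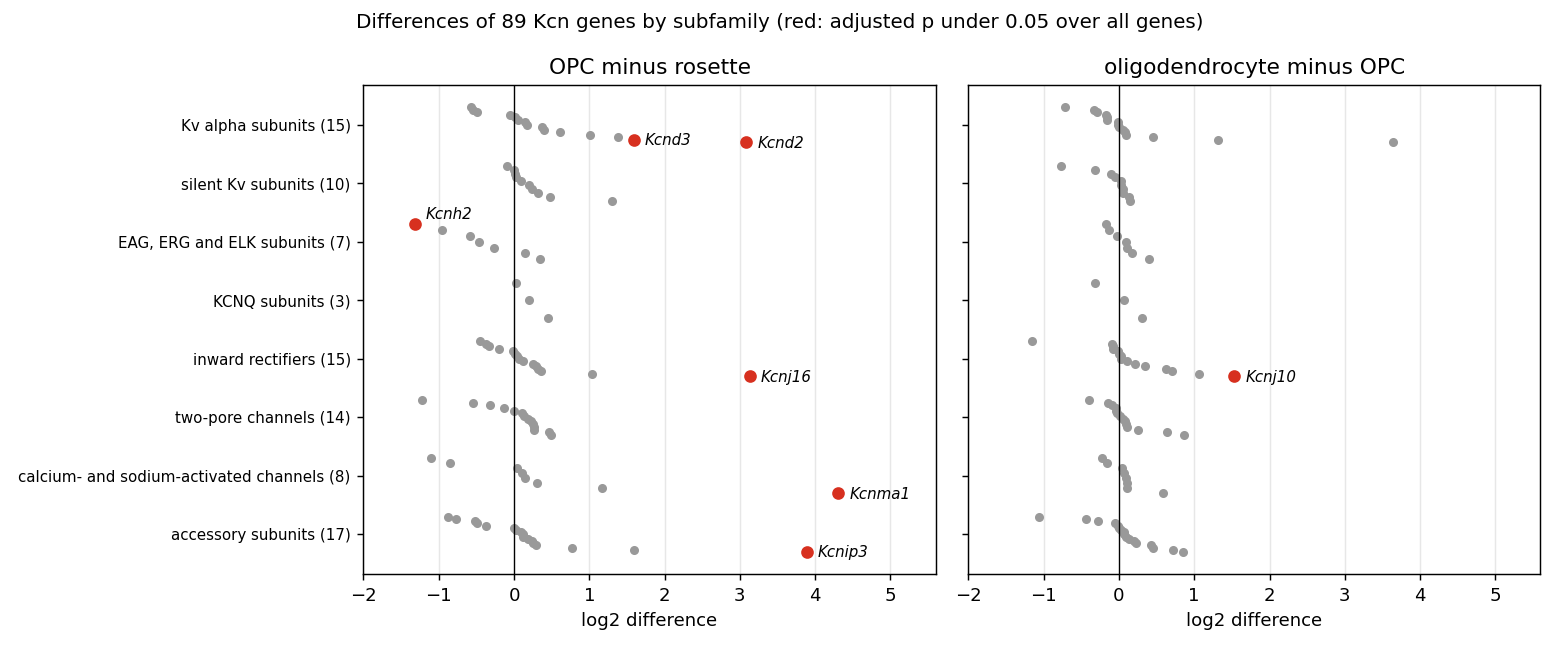
Log2 differences (horizontal axis) of the 89 potassium channel genes by subfamily (vertical axis, number of genes in brackets), OPCs minus the rosette on the left and oligodendrocytes minus OPCs on the right; red points have a limma adjusted p under 0.05. The 6 red genes on the left include Kcnma1 at 4.31, from the row without RefSeq support, and the red gene on the right is Kcnj10 at 1.53.

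By subfamily, 2 of 15 Kv alpha subunit genes, 1 of 15 inward rectifier genes, 1 of 8 genes of calcium- and sodium-activated channels and 1 of 17 accessory subunit genes rose in OPCs, and 1 of 7 genes of the EAG, ERG and ELK group fell. Over all genes, 1.26% rose and 1.87% fell. None of the 14 two-pore channel genes, the 10 silent subunit genes or the 3 measured KCNQ genes was called. At these shares, the absence of a call in groups this small says little about them. An unadjusted limma p under 0.05 was found for 2 (14.3%), 1 (10%) and 0 of them, against 15.4% of all genes. The median differences were 0.17 for Kv alpha subunits, 0.06 for inward rectifiers, 0.12 for calcium- and sodium-activated channels, 0.12 for accessory subunits, 0.16 for two-pore channels, 0.14 for silent subunits and 0.19 for KCNQ genes. The number of arrays limits the precision, and the lone rosette array was assumed to vary like the OPC and oligodendrocyte pairs. Leaving out either oligodendrocyte array, which takes their spread out of the fit, gave 17 called channel genes, in a fit that called 14.5% of all genes against 3.13% with all 6 arrays. Leaving out the OPC array of passage 3 or of passage 11 gave 4 or 3, with 1.04% or 0.782% of all genes called. Kcnd2 and Kcnip3 were called with either OPC array left out, and so was Kcnma1 by the row without RefSeq support. The other Kcnma1 row was not tested in these fits. Kcnd3 and Kcnh2 were not called without the passage 3 or without the passage 11 array, and Kcnj16 was not called without the passage 11 array.

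Oligodendrocytes against OPCs address the last step, the withdrawal of growth factors with thyroid hormone. Kcnj10 rose, and it was the 1 channel gene called (1.12% of the 89, against 0.396% of all genes). None was called lower, against 0.0502% of all genes. Kcnj10 was 11.41 and 11.68 in oligodendrocytes against 10.03 and 9.99 in OPCs, so the pairs do not overlap. The difference was 1.53 ± 0.16 (SE, 2 arrays a group), or 2.89-fold, with adjusted p = 0.0407 in the limma fit. The call is close to the threshold. With passage as a block in the limma fit, Kcnj10 was not called and Kcna1 was. The labels name no shared culture, so that fit is an alternative. Kcnj10 kept a higher value in oligodendrocytes in all 14 alternatives, by 1.40 to 1.67, but was not called in 7 of them, and some of the others could not give another p-value. The 7 include the fits without the OPC array of passage 3 and without that of passage 11, where 0 channel genes were called. Without the oligodendrocyte array of passage 3 the count was 12 (14.6% of all genes were called in that fit), and without that of passage 11 it was 13 (6.85% of all genes), with Kcnj10 called in both. The list of 8 astrocyte markers averaged 10.56 and 10.09 in oligodendrocytes against 10.31 and 9.84 in OPCs. Gfap read 10.50 and 8.69 in oligodendrocytes against 8.11 on both OPC arrays, and Aqp4 9.89 and 8.47 against 8.27 and 7.84. Slc1a3 was lower, at 12.33 and 11.92 in oligodendrocytes against 12.92 and 12.90 in OPCs. For Aldh1l1, Aldoc, Slc1a2, Gja1 and Gjb6 the OPC and oligodendrocyte pairs overlapped. The part of these markers in the Kcnj10 result was not tested.

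A count that needs no variance estimate gave more genes. At least 2-fold higher in oligodendrocytes at both passages were Kcna1, Kcna2, Kcnj2 and Kcnj10 (4.49% of the channel genes, 1.14% of all genes). At least 2-fold lower at both were Kcnj16 and Kcnmb4 (2.25%, against 0.371% of all genes). Apart from Kcnj10, none of these was called.

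Kcna1 encodes Kv1.1, a delayed rectifier that in myelinated axons lies beside the nodes. It read 8.36, 8.63, 7.89, 8.40, 11.14 and 12.43. The EpiSC, rosette and OPC arrays lay between 7.89 and 8.63, and both oligodendrocyte arrays were far above them. The difference was 3.63 ± 0.45, or 12.4-fold, the largest of any channel gene at this step, with adjusted p = 0.0617. It was 3.25 at passage 3 and 4.02 at passage 11. The gene was called in 5 of 14 alternatives, the fit with passage as a block among them. Kcna2, whose product pairs with Kv1.1, was 11.75 and 12.08 in oligodendrocytes against 10.41 and 10.79 in OPCs (1.31 ± 0.20, 2.48-fold, adjusted p = 0.0991). A second row named Kcna2 read 7.65, 7.45, 8.04, 8.30, 8.82 and 9.51, in the same order of cell types.

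Kcnj2 (Kir2.1) read 6.50, 7.68, 7.49, 7.22, 8.56 and 8.26, below the median of all values on every array. Its difference was 1.06 ± 0.18 (adjusted p = 0.125). Kcnj16 was 10.40 and 11.28 in OPCs and 9.30 and 10.07 in oligodendrocytes, a difference of -1.15 ± 0.38 (adjusted p = 0.328). The same direction held at passage 3 (-1.10) and at passage 11 (-1.21). Kcnmb4 was 9.86 and 10.68 in OPCs and 8.76 and 9.66 in oligodendrocytes (-1.06 ± 0.39, adjusted p = 0.372). In both genes the passage 11 array was above the passage 3 array by nearly as much as the cell types differ.

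Genes that had risen at the OPC stage were not called at this step. The oligodendrocyte minus OPC differences were -0.33 ± 0.15 for Kcnd2, -0.72 ± 0.13 for Kcnd3 and -0.43 ± 0.24 for Kcnip3, and none was called (adjusted p = 0.479, 0.140 and 0.584). For Kcnma1 the row with RefSeq support gave -0.70 ± 0.14 (adjusted p = 0.152) and the other row 0.09 ± 0.19. Kcnip2, a KChIP gene that was not high in OPCs, was 8.30 and 8.21 in OPCs against 8.97 and 9.23 in oligodendrocytes (0.84 ± 0.16, adjusted p = 0.139). Kcna6 differed by 0.45 ± 0.18 (adjusted p = 0.399). Kcnh2 was 9.34 and 9.12 in OPCs and 9.21 and 8.97 in oligodendrocytes, which overlap. The median difference over the 89 genes was 0.05, against 0.001 over all genes, and 12 of 89 (13.5%) had an unadjusted p under 0.05, against 12.3% of all genes.

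**Figure D4:**
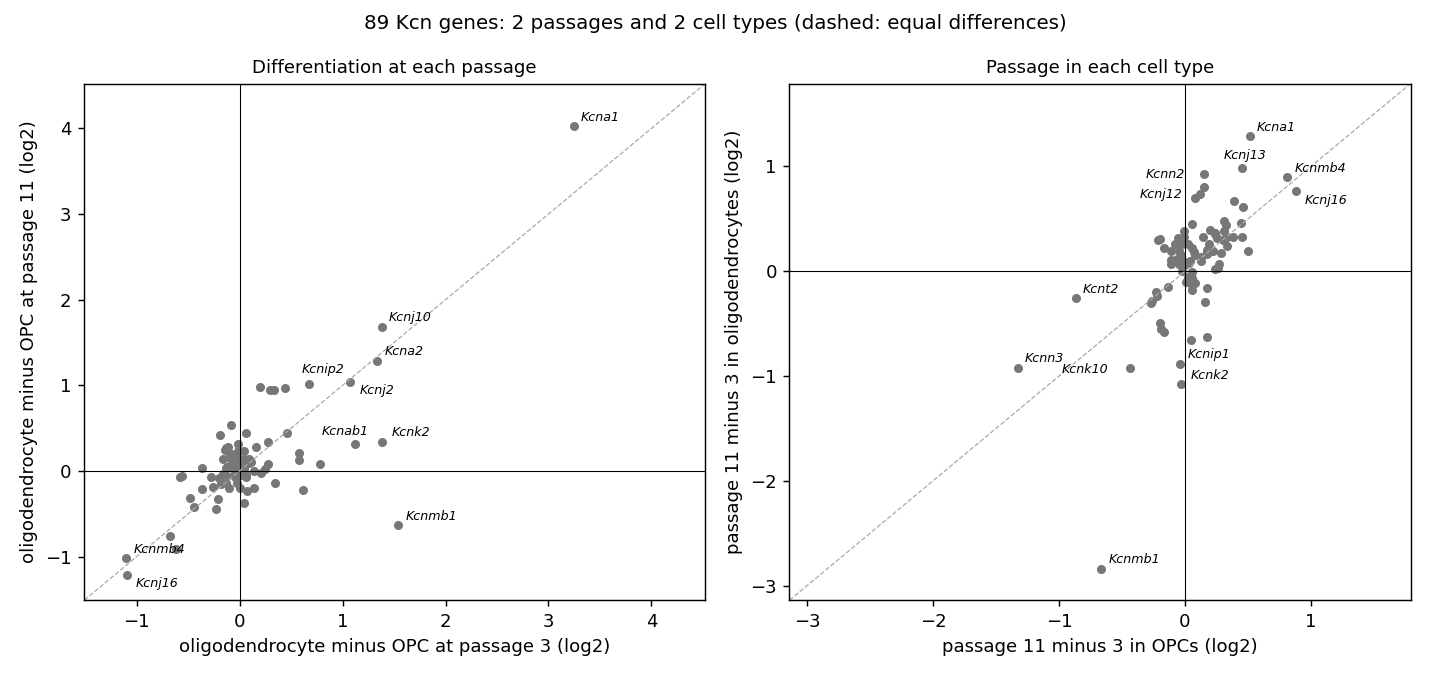
Log2 differences of the 89 potassium channel genes: on the left oligodendrocytes minus OPCs at passage 3 (horizontal) and passage 11 (vertical), on the right passage 11 minus passage 3 in OPCs (horizontal) and oligodendrocytes (vertical); the dashed line marks equal values. Kcna1 lies at 3.25 and 4.02 on the left, and Kcnmb1 stands apart on both sides, at 1.54 and -0.63 on the left and at -0.67 and -2.84 on the right.

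Passage 11 against passage 3 was tested over OPCs and oligodendrocytes together, with cell type as a covariate. No channel gene was called, and 0% of all genes were called either. The lowest adjusted p among the 89 was 0.357. At an unadjusted p under 0.05, 18 of the 89 (20.2%) passed, against 13.9% of all genes (2769 genes). A difference of 2-fold or more with 1 sign in both cell types was seen in 0 of the 89, and in 0.396% of all genes. The error here measures how far the passage effect in OPCs departs from that in oligodendrocytes, since each passage has 1 culture of a cell type.

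Some channel genes still differed between passages, by nearly the same amount in both cell types or by unlike amounts. Kcnmb4 was higher at passage 11 by 0.81 in OPCs and 0.89 in oligodendrocytes, and Kcnj16 by 0.88 and 0.77. Kcnn3, the small-conductance calcium-activated channel SK3, read 9.17, 9.17, 11.00, 9.68, 10.64 and 9.72. Its difference over both cell types, passage 11 minus passage 3, was -1.12 ± 0.15 (adjusted p = 0.357). It was -1.33 in OPCs and -0.92 in oligodendrocytes. Kcnmb1, the BK accessory subunit of smooth muscle, read 8.12, 7.79, 8.89, 8.23, 10.43 and 7.59 and was above 9 on only 1 array, that of oligodendrocytes at passage 3. Acta2, a smooth muscle and mural cell gene, read 12.81 and 11.66 in OPCs and 13.79 and 11.87 in oligodendrocytes. Of the other mural genes, Pdgfrb read 8.52 and 8.40 in OPCs and 9.49 and 8.53 in oligodendrocytes, and Notch3 read 10.13 and 9.66, then 9.79 and 9.29. Rgs5, Des and Anpep stayed between 7.27 and 7.77 on these 4 arrays. Cspg4, which is on the OPC marker list too, was higher at passage 11, at 10.54 and 10.90 in OPCs and 9.82 and 10.02 in oligodendrocytes. The list of 7 averaged 9.19 and 9.01 in OPCs and 9.31 and 8.89 in oligodendrocytes, and its part in the Kcnmb1 values was not tested. Kcnk2, the two-pore channel TREK-1, read 8.56, 8.70, 9.18, 9.15, 10.57 and 9.49 and was likewise highest in oligodendrocytes of passage 3. Kcnn2 (SK2) read 7.78, 8.18, 8.20, 8.35, 8.40 and 9.33, with its highest value in oligodendrocytes of passage 11.

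The rosette against the EpiSC array has 1 array a side, so only sizes are given. In the rosette, Kcnj3 and Kcnk1 were lower by 4-fold or more (2.25% of the channel genes, against 0.797% of all genes). No channel gene was at least 4-fold higher, against 1.75% of all genes. Kcnj3 encodes Kir3.1, a subunit of the inward rectifiers opened by G proteins. It read 11.59 in the EpiSC array, then 8.30, 7.78, 7.93, 8.35 and 8.06, and was 9.73-fold lower in the rosette. Its partner genes Kcnj5, Kcnj6 and Kcnj9 stayed between 7.09 and 8.44 on all 6 arrays. Kcnk1, the two-pore channel TWIK-1, read 10.79, 8.44, 8.86, 8.99, 9.20 and 9.93 and was 5.10-fold lower in the rosette. Its values in the later cultures lie between those of the rosette and the EpiSC array.

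With a 2-fold limit, 9 channel genes were higher in the rosette (10.1%, against 6.91% of all genes) and the same 2 were lower (2.25%, against 3.69%). The 9 were Kcnd2, Kcnd3, Kcnh2, Kcnh8, Kcnip1, Kcnj2, Kcnj10, Kcnk10 and Kcnma1. Kcnk10 had the largest difference, 1.83 (8.66 to 10.49), followed by Kcnip1 with 1.69 (7.55 to 9.24). Kcnma1 belongs to this list through the row without RefSeq support, with 1.28. Its other row differed by 0.50. Kcnh8 passed the limit with 1.07 by its brightest row on average, and the other Kcnh8 row differed by 0.63. The median difference over the 89 genes was -0.03, against -0.07 over all genes. Neuron markers averaged 9.00 in the EpiSC array and 12.07 in the rosette, and their part in these differences was not tested.

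Most of the remaining channel genes moved little. Kcng1, a silent subunit, stayed between 9.67 and 10.24 on the 6 arrays. Kcnk15, a two-pore channel gene, stayed between 9.38 and 9.87. Among KCNQ genes, which give the M-current of neurons, Kcnq5 read 8.61, 9.05, 9.61, 9.40, 9.04 and 9.33 and Kcnq3 8.65, 8.44, 8.48, 8.46, 8.75 and 8.80. Kcna5 (Kv1.5) lay between 7.72 and 8.29, with its highest value in the rosette. The beta subunits Kcnab1 and Kcnab2, which bind Kv1 pores, read 7.48 to 8.60 and 8.94 to 9.74. Kcnab1 was 8.60 in oligodendrocytes of passage 3 and at most 7.97 elsewhere. None of these was called in any comparison.

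Genes that work with potassium channels were taken as a list of 20, all measured. Lgi3, a secreted protein linked to Kv1 channels, rose in oligodendrocytes, from 9.19 and 9.11 to 11.71 and 12.44 (2.93 ± 0.26, adjusted p = 0.0407). Cntn2, an adhesion protein of axons that anchors Kv1 channels, read 8.71 in the EpiSC array and 11.52 in the rosette. It fell to 8.36 and 8.59 in OPCs (-3.05 ± 0.21, adjusted p = 0.00616). No other gene of the list was called. Over all genes, 0.396% were called higher in oligodendrocytes than in OPCs and 1.87% lower in OPCs than in the rosette. The Kv4 partners Dpp6 and Dpp10 differed between OPCs and the rosette by -0.81 ± 0.22 and 0.80 ± 0.20 (adjusted p = 0.157 and 0.133). Cntnap2 (CASPR2) differed by -0.70 ± 0.31 there (adjusted p = 0.388), and Dlg1, a scaffold, by 0.89 ± 0.20 between oligodendrocytes and OPCs (adjusted p = 0.188). The list's median difference was -0.24 in OPCs against the rosette and 0.20 in oligodendrocytes against OPCs.

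Potassium and chloride transport was covered by 14 genes, of which 10 were measured. Atp1b2, the beta subunit of the glial sodium pump, read 10.35, 8.79, 11.30, 11.56, 12.17 and 12.43 and rose in OPCs against the rosette by 2.64 ± 0.21 (adjusted p = 0.00811). Slc12a4, the potassium-chloride cotransporter KCC1, read 9.66, 9.01, 10.24, 10.20, 10.53 and 10.60 and rose by 1.21 ± 0.16 (adjusted p = 0.029). The neuronal cotransporter gene Slc12a5 (KCC2) was 9.82 in the rosette and 8.71 and 8.84 in OPCs (adjusted p = 0.0829). Slc12a7 differed by -1.45 ± 0.41 and Atp1b1 by -0.96 ± 0.20 (adjusted p = 0.176 and 0.0874). Slc12a2, the sodium-potassium-chloride cotransporter NKCC1, was 11.02 and 10.92 in OPCs and 11.85 and 12.52 in oligodendrocytes, and this was not called (1.22 ± 0.25, adjusted p = 0.163). Over all genes, 1.26% were called higher in OPCs than in the rosette. None of the 10 was called in oligodendrocytes against OPCs, where 0.446% of all genes were. At that step 4 of them (40%) had an unadjusted limma p under 0.05, against 12.3% of all genes. The 3 measured HCN genes, for channels opened by hyperpolarisation, were not called in either comparison. Hcn4 was 9.70 in the rosette and 8.77 and 8.80 in OPCs (adjusted p = 0.081), Hcn3 was 9.46 against 8.80 and 8.69 (adjusted p = 0.118), and Hcn2 was 8.66 against 8.48 and 8.53. In oligodendrocytes Hcn2 was 9.01 and 9.58, a difference from OPCs of 0.79 ± 0.22 (limma adjusted p = 0.258). Hcn3 and Hcn4 differed from OPCs there by -0.17 and -0.08.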

How the data were processed

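RNA of 6 cultures was measured on 1 array each. Per the submitters' processing notes, the authors used Affymetrix Expression Console and RMA, and the deposited data are on the log2 scale. No version or background setting is given in the sources used here. Of 35556 rows, 21789 carried 1 gene symbol, 1621 several and 12146 none in the array annotation, and 999 genes had several rows; the row with the highest mean was kept, which left 19938 genes. Names follow that annotation (Kcne1l is the RefSeq gene also called Kcne5). Of the 89 potassium channel genes, 87 kept a row with an accession of the same gene in RefSeq; Kcnma1 and Kcnk15 did not.

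Tests were two-sided and used lmFit and eBayes of limma 3.58.1 (R 4.3.3) over all 19938 genes, with Benjamini-Hochberg adjustment and 0.05 as the threshold. The fit by cell type used all 6 arrays in 4 groups (2 residual and 3.32 prior degrees of freedom). Passage was tested on OPC and oligodendrocyte arrays alone (4 arrays), adjusting for cell type (1 and 3.19). Folds are 2 to the power of the log2 difference. The scripts were tested on simulated data. Nothing in the labels says that arrays of a group came from separate cultures other than by passage, and p-values therefore cover only the spread between these samples. The OPC arrays differ in passage, and so do the oligodendrocyte arrays. In the fit by cell type, SEs and p-values thus rest on the passage difference within each pair. Technical spread is mixed with that difference and cannot be told apart from it. Signal over background was not used. Some genes of the family are not reported here.

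The genes, lists and tests were chosen with earlier results of these data known. By rule, the text names every channel gene called in a comparison, at least 4-fold apart between the rosette and EpiSCs, or 2-fold apart between oligodendrocytes and OPCs at both passages, 1 gene of each subfamily (the one with the highest mean), a set of 20 genes chosen by name, and, of the partner and transport lists, the genes called and up to 4 others with the largest differences. Further names (such as Kcnn3, Kcnt2, Kcnmb1, Kcnv1, Kcnh1 and the other KChIP and Kir3 genes), the motifs, the promoters and the genes in the plots were chosen after their values were seen. Alternatives covered scaling, a filter on dim genes, the row kept for a gene, all rows tested, a variance trend, the passage as a block, the samples in the fit and each replicate left out. The 0.5 unit limit used to call an untested difference moved was set by hand.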

Additional observations from a re-analysis of the deposited data

Results flagged for a closer look

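The row named Kcnma1 that the choice of the highest mean left out holds a signal of its own: OPCs were 1.89 above the rosette on the log2 scale (SE 0.17, adjusted p = 0.00929 when that row stands for the gene). It differs from the row with the highest mean by accessions (17 of 20 in RefSeq Kcnma1, against 0 of 4) and by the size of the difference (1.89 against 4.31). Which transcript the row with the highest mean measures was not tested.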

How the results depend on the processing

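Of 33 differences that were called or at least 1 unit in size, none changed its direction in any alternative run. For single genes, 290 values stayed on their side of the threshold or, where no test was run, within 0.5 units. Of the others, 42 gained a call, 15 lost one and 1 untested value moved. It was Kcnma1 in the rosette against EpiSCs, 0.50 with the row that has the most RefSeq accessions against 1.28. That alternative was chosen after seeing the data. In OPCs against the rosette, 6 channel genes were called. The count was 14 with the passage as a replicate block and 17 with only the groups compared, where 6.05% and 14.5% of all genes were called against 3.13%. Leaving out 1 replicate gave 3 to 17. In oligodendrocytes against OPCs, 1 gene was called. The share of all genes called was 0.446% in that fit. The count was 0 without dim genes (0.168% of all genes tested) and 0 after a further quantile normalization (0.0702%). It was 0 with all transcripts tested (0.00281% of rows) and 2 with arrays centred on the median (0.787%), where Kcna1 joined Kcnj10. With the replicate block (0.416%) or with a variance trend (0.396%) the count was 1. The gene was then Kcna1 in place of Kcnj10. Leaving out 1 replicate gave 0 to 13. Over all genes, 88.8% of the calls at that step were higher in oligodendrocytes, against 100% (14 genes) after the further quantile normalization, 39.4% (2919 genes) without oligodendrocyte replicate 1 and 73.6% (1365 genes) without replicate 2. For passage the count was 0 in every alternative run, while 1 of all genes was called with a trend and 2 with centring. For the rosette against EpiSCs, 2 genes passed the 4-fold limit in every alternative that kept that limit, and 11 passed at 2-fold. The alternatives are not independent. Dropping the EpiSC array adds no spread and gives the reported p-values again. In OPCs against the rosette, the groups compared alone and both fits without an oligodendrocyte array share the same spread, and in oligodendrocytes against OPCs the groups compared alone give the reported p-values again. The causes were not tested. Fewer arrays supply the spread in each fit without an OPC or an oligodendrocyte array, and the counts fell in some of these fits and rose in others. Fewer arrays also supply it where OPCs and the rosette were compared alone.

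The numbers of the passages are shared by OPCs and oligodendrocytes, but the labels name no shared culture. The passage differences of the 2 cell types correlate at 0.503 over all genes and 0.636 over the channel genes, which is a hint from the data and not the design, and there are only 2 pairs. With the block, the adjusted p was 0.0407 for Kcna1 and 0.0526 for Kcnj10. The arrays give no signal over background, so differences of genes below the median of all values can be compressed.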
